A study of Cavia porcellus with 9 samples.

Results

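The genes of glycolysis, glucose uptake and pyruvate entry were measured by RNA sequencing in retinas of guinea pigs (Cavia porcellus) reared under green, blue or white light. The set was defined by name, with earlier results of these data known, and holds 35 genes. It covers glucose transporters, the enzymes that take glucose to pyruvate and lactate, and the enzymes that regulate this flow. It also covers the carriers and enzymes that pass pyruvate into mitochondrial oxidation. Of the 35 genes, 33 had a row in the table of 19962 genes and all 33 were among the 15469 genes kept for testing. Slc2a3, a neuronal glucose transporter, and Ldha, the lactate dehydrogenase subunit that favours lactate production, had no row under those symbols and were not analysed here. All animals were male tri-color guinea pigs of the Dunkin-Hartley strain, obtained at 2 weeks of age and sampled at 12 weeks of age after 8 weeks under their light on a 12:12 cycle. There were 3 green, 3 blue and 3 white libraries, with white light as the control. In each group 2 of the 3 libraries carry the same animal number in their titles, 11 in green (libraries 1 and 2), 32 in blue (libraries 2 and 3) and 6 in white (libraries 1 and 2). The green pair is labelled with the same eye, the right one, and the labels do not say how its samples differ, whereas the blue and white pairs are the right and left eye of an animal. The p-values treat libraries as independent, so they measure the spread between libraries, part of which is a spread within an animal.

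Glycolysis splits glucose into pyruvate in the cytosol, and pyruvate is then either reduced to lactate or carried into mitochondria and oxidised by the pyruvate dehydrogenase complex. The retina is known for converting much of its glucose to lactate even when oxygen is present, and studies in mice place much of this activity in photoreceptors. The guinea pig retina has no blood vessels of its own over most of its area, and glucose reaches it from the choroid through the pigment epithelium. Pyruvate dehydrogenase kinases switch off pyruvate oxidation, and the PFKFB enzymes set the level of an activator of phosphofructokinase, a main control point of glycolysis.

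Library totals lay between 62155041 and 74979806 counts. Levels are given as CPM, counts scaled to library size with TMM factors, and are compared between libraries for 1 gene at a time, since they are not corrected for transcript length. Of 12 rod photoreceptor markers listed, 10 were among the genes tested. Pigment epithelium markers varied widely within groups, and Rpe65, the visual cycle isomerase of that layer, had 14.4, 102 and 7.76 CPM in the green libraries, 61.0, 63.8 and 98.6 CPM in the blue libraries and 44.9, 144 and 15.1 CPM in the white libraries. The 15 pigment epithelium markers summed to 502 to 1019.6 CPM in green, 789.6 to 984 CPM in blue and 554 to 1003 CPM in white libraries, so the groups overlapped. In these bulk libraries, fewer cells of a type and less RNA per cell cannot be told apart.

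No member passed the threshold of an adjusted p of 0.05 in any comparison, with edgeR's quasi-likelihood test or with DESeq2, each adjusted over all genes tested. Between green and white, 4 of 33 members (12.1%; 3 higher in green and 1 lower) had an unadjusted edgeR p under 0.05, against 5.81% of all genes (3.52% higher and 2.29% lower), and at the adjusted threshold edgeR called 0.00646% of all genes. Between blue and white, 3 members (9.09%; 1 higher in blue and 2 lower) reached that unadjusted p, against 4.45% of all genes (2.47% higher and 1.98% lower), with 0.00646% of genes called after adjustment. Between green and blue, 8 members (24.2%; 7 higher in green and 1 lower) reached it, against 7.18% of all genes (4.11% higher and 3.06% lower), and edgeR called 0% of genes. In the joint test of the 3 groups, 6 members (18.2%) had an unadjusted p under 0.05, against 5.94% of all genes; 0.00646% of genes and 0 members were called. DESeq2 called 0.155%, 0.181% and 0.265% of genes in the pairwise comparisons and 0.531% in the joint test, with 0 members in each. The members were chosen with earlier results of these data known, so shares above those of all genes are no independent result. The counts at an unadjusted p under 0.05 depended on single libraries. Between green and blue, 5 members reached it without library 1 of green (6.28% of all genes), 4 without library 2 of blue (5.12%) and 3 without library 3 of blue (3.77%). Between green and white, leaving out library 1 of green gave 2 members (5.17%), leaving out library 2 of white gave 2 (3.51%) and leaving out library 3 of white gave 7 (7.71%). Between blue and white it was 1 without library 2 of blue (4.16%) and 1 without library 3 of blue (2.51%).

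Most members differed little in level between the lights. The difference was under 0.2 on the log2 scale, in either direction, for 26 of 33 members between green and white. It was for 29 between blue and white and 24 between green and blue. The share of all genes under that limit was not computed, so these counts cannot be read as particular to the members. Between green and white, 24 of 33 members had a log2 difference above 0, or 72.7%, where 52.4% of all genes did, and the median difference was 0.053 against 0.009 over all genes tested. Without library 1 of white, 19 of 33 were above 0 and the median was 0.011, and without both libraries whose titles end in "-B" (library 1 of green and library 3 of white) the median was 0.088. For blue minus white, 14 of 33 members (42.4%) were above 0 and 19 below it, against 51.5% and 48.5% of all genes, with a median of -0.014 against 0.005. The sign of that median depended on single libraries: it was 0.004 without library 3 of blue (17 above 0), 0.002 without library 3 of white (18 above 0) and -0.047 without library 1 of white (9 above 0), and 0.002 without both "-B" libraries (18 above 0). For green minus blue, 25 of 33 (75.8%) were above 0 against 49.4% of all genes, with a median of 0.084 against -0.003. The libraries of the groups did not overlap for 6 members between green and white (18.2%, against 10.1% of all genes): 4 were higher in green and 2 lower, against 5.34% and 4.74% of all genes. Between blue and white this held for 4 members (12.1%, against 9.9%), 0 higher in blue and 4 lower, against 5.76% and 4.14%. Between green and blue it held for 10 members (30.3%, against 14.2%), 9 higher in green and 1 lower, against 7.23% and 6.94%. The 3 comparisons share libraries with each other, so their counts are not independent. The choice of members with earlier results known limits these shares too. Over the members the standard error of a log2 difference had a median of 0.09 in each comparison.

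**Figure D1:**
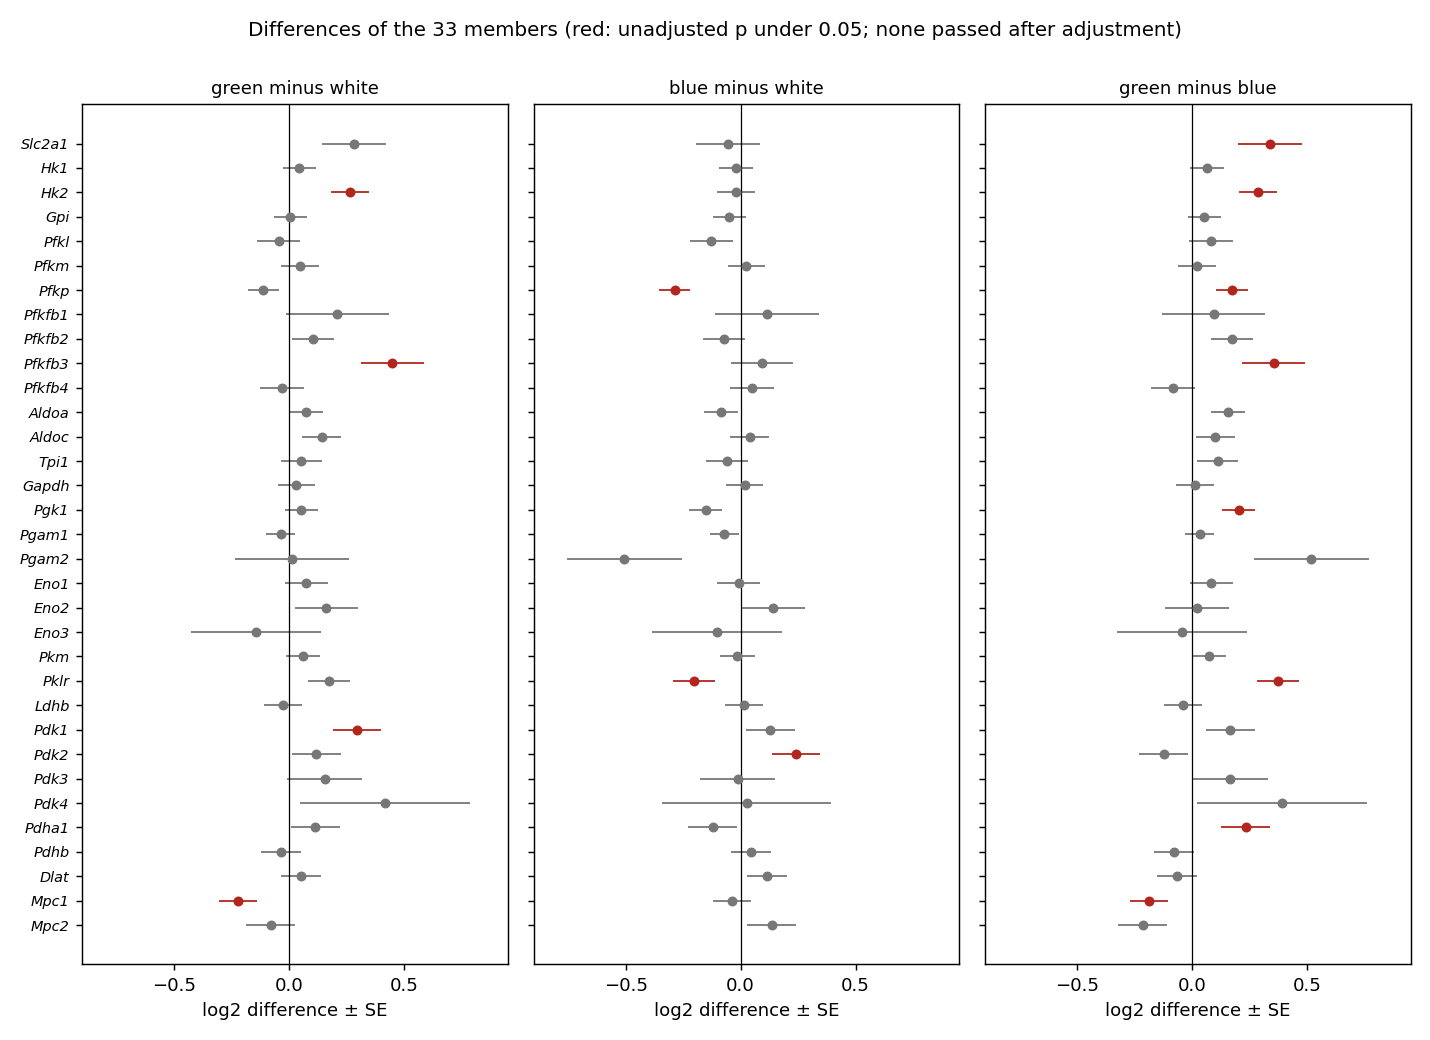
Differences of the 33 tested members on the log2 scale (points, horizontal axis) with their standard errors (bars), from edgeR, in one panel for each pair of lights (the group named first minus the other), with 3 libraries per group. The 4, 3 and 8 members in red had an unadjusted p under 0.05, and none passed after adjustment over all genes.

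Glucose enters the retina through the transporter encoded by Slc2a1, and hexokinases then trap it in the cell. Slc2a1 had 881, 805 and 700.3 CPM in the green libraries, 682, 629 and 576 CPM in the blue libraries and 536, 619 and 805 CPM in the white libraries. The green libraries lay above the blue ones without overlap, while white library 3 lay within the green range. The log2 difference in level was 0.34 ± 0.14 (SE) for green minus blue (edgeR adjusted p = 0.662), 0.28 ± 0.14 for green minus white (edgeR adjusted p = 0.854) and -0.06 ± 0.14 for blue minus white (edgeR adjusted p = 1). The green minus white value ran over 0.15 to 0.45 across alternatives, the lowest without library 1 of white and the highest without library 3 of white. Library 1 of green and library 3 of white, the highest of their groups for Slc2a1, are the libraries whose titles end in "-B", a suffix that the labels do not explain. Without both, the green minus blue difference was 0.26.

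Hk2, a mitochondria-bound hexokinase found in photoreceptors in mice, had 744, 726 and 689 CPM in the green libraries, 659, 568 and 543 CPM in the blue libraries and 578, 590.2 and 628 CPM in the white libraries. Every green library lay above every blue and every white library. Hk2 averaged 719.8 ± 28.4 CPM under green light, 590.2 ± 60.6 CPM under blue light and 599 ± 26.2 CPM under white light (SD, n = 3 each). Its log2 difference was 0.27 ± 0.08 for green minus white (edgeR adjusted p = 0.814; DESeq2 0.375) and 0.29 ± 0.08 for green minus blue (edgeR adjusted p = 0.587; DESeq2 0.199). Over all alternatives tried the values ran over 0.23 to 0.29 and 0.23 to 0.37 in these comparisons. Hk1, the hexokinase expressed in most cells, had 932, 1095 and 1001 CPM in the green libraries, 966, 973 and 957 CPM in the blue libraries and 942, 975 and 1019.9 CPM in the white libraries, and all 3 groups overlapped. The log2 ratio of Hk2 to Hk1 within a library, in which depth cancels, was -0.33, -0.59 and -0.54 in green, -0.55, -0.78 and -0.82 in blue, against -0.70, -0.72 and -0.70 in white libraries. All green ratios were above all white ones, while library 1 of blue lay within the green range. Only differences of this ratio between libraries can be read, since its level depends on the length of both transcripts.

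**Figure D2:**
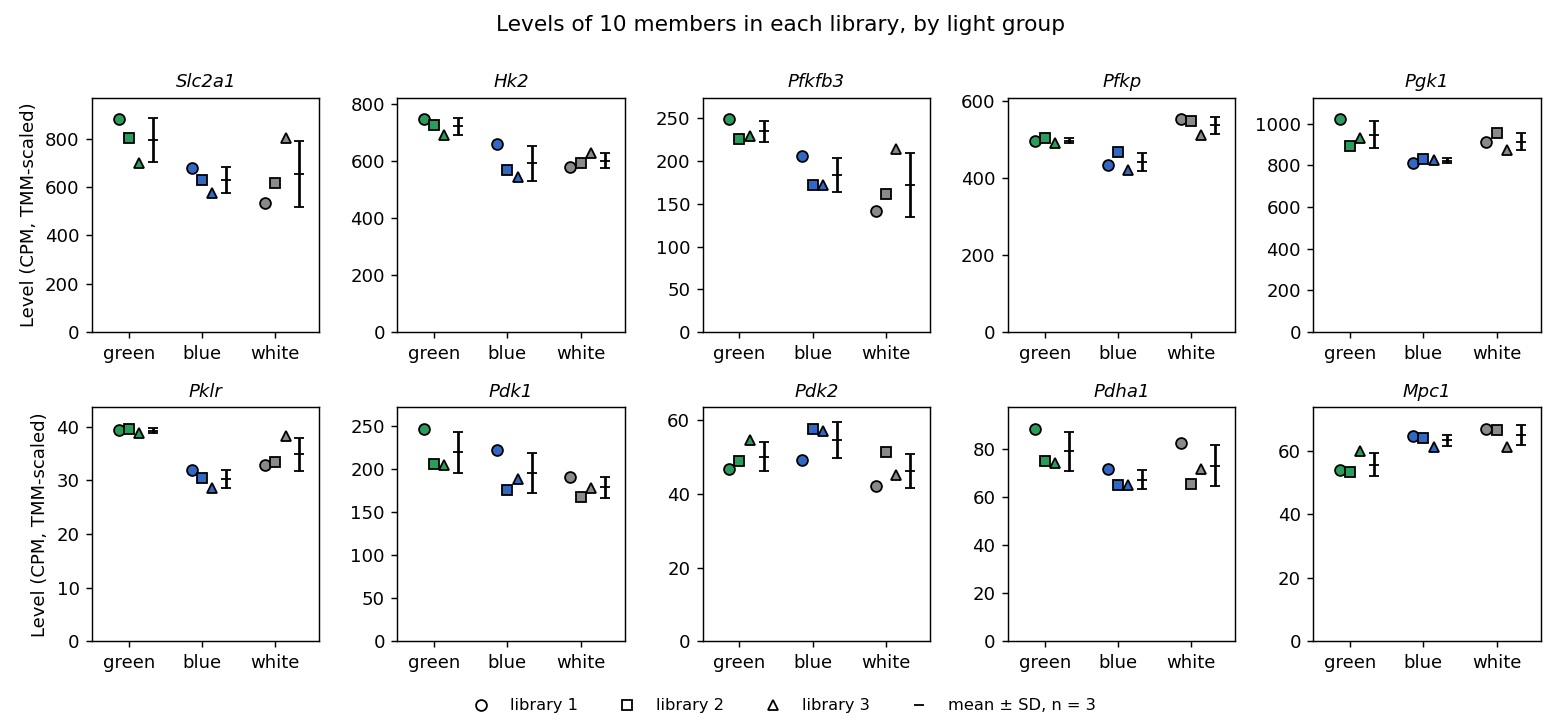
Levels (vertical axis, CPM after TMM scaling, from 0) of the 10 members with an unadjusted p under 0.05 in any comparison, in the green, blue and white libraries (circles, squares and triangles for libraries 1, 2 and 3), with mean ± SD. The 3 green libraries stand above the others for Hk2, Pfkfb3 and Pklr and below them for Mpc1. The 3 blue libraries stand below the others for Pfkp, Pgk1 and Pklr, and the 3 white libraries stand above the others for Pfkp.

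Glucose phosphate isomerase and the phosphofructokinases carry out the next steps. Gpi, the isomerase, had 1163, 1279.6 and 1257 CPM in the green libraries, 1166, 1224 and 1176 CPM in the blue libraries and 1165, 1209 and 1313 CPM in the white libraries, with overlap in every comparison. Phosphofructokinase is built from subunits of 3 kinds. The platelet-type subunit gene Pfkp had 497, 504 and 491 CPM in the green libraries, 434, 467 and 422 CPM in the blue libraries and 552, 549 and 512 CPM in the white libraries, so every blue library lay below every green library and every green library lay below every white library. Its log2 difference was -0.29 ± 0.07 for blue minus white, with the smallest adjusted p of any member in that comparison (edgeR 0.69; DESeq2 0.0797). For green minus white it was -0.11 ± 0.07 (edgeR adjusted p = 0.913), and for green minus blue 0.17 ± 0.07 (edgeR adjusted p = 0.654). The liver-type subunit gene Pfkl ranged from 294 to 362 CPM and the muscle-type subunit gene Pfkm from 471 to 581 CPM over the 9 libraries. For both, groups overlapped in all 3 comparisons. Pfkl differed by -0.13 ± 0.09 and Pfkm by 0.02 ± 0.08 for blue minus white.

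Of the 4 PFKFB genes, Pfkfb3 had the largest difference. This isoform, whose kinase activity far outweighs its phosphatase activity, had 249, 226 and 229.7 CPM in the green libraries, 207, 172 and 172 CPM in the blue libraries and 142, 161 and 214 CPM in the white libraries. The green libraries lay above all blue and all white ones, and library 3 of white was above both other white libraries by more than they differed from each other. Pfkfb3 averaged 235 ± 12.2 CPM under green light, 184 ± 19.9 CPM under blue light and 172 ± 37.4 CPM under white light (SD, n = 3 each). The log2 difference was 0.45 ± 0.14 for green minus white (edgeR adjusted p = 0.814; DESeq2 0.227) and 0.36 ± 0.14 for green minus blue (edgeR adjusted p = 0.654). Leaving out 1 library at a time or changing another setting moved the green minus white value over 0.32 to 0.63, the highest without library 3 of white and the lowest without library 1 of white. Pfkfb2, an isoform known for its abundance in heart, had 171, 194 and 171 CPM in the green libraries, 176, 155 and 145 CPM in the blue libraries and 177, 159 and 164 CPM in the white libraries, with overlap in every comparison. Pfkfb4 ranged from 69.0 to 83.8 CPM, with a log2 difference of -0.03 ± 0.10 for green minus white, and Pfkfb1 ranged from 7.66 to 14.6 CPM. The log2 ratio of Pfkfb3 to Pfkfb4 was 1.80, 1.57 and 1.51 in green, 1.49, 1.04 and 1.04 in blue, against 1.04, 0.97 and 1.38 in white libraries, without overlap between green and either other group.

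Aldolases and triose phosphate isomerase produce and exchange the triose phosphates. Aldoc, the brain-type aldolase, had 7253, 7416 and 8069 CPM in the green libraries, 6664, 7257 and 7268 CPM in the blue libraries and 6116, 6986 and 7507 CPM in the white libraries, and Aldoa, the muscle-type aldolase, had 1319.96, 1473 and 1449 CPM in the green libraries, 1242, 1288 and 1276 CPM in the blue libraries and 1242, 1379 and 1417 CPM in the white libraries. Aldoc overlapped in every comparison. For Aldoa the green libraries lay above the blue ones without overlap, but the log2 difference was 0.16 ± 0.07 (edgeR adjusted p = 0.706). Tpi1, triose phosphate isomerase, ranged from 867 to 1098 CPM with all groups overlapping.

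Most genes of the steps from glyceraldehyde phosphate to pyruvate overlapped between the lights in every comparison, the exceptions being Pgk1, Pgam2 and Pklr. Of all genes, 10.1% did not overlap between green and white, 9.9% between blue and white and 14.2% between green and blue. Gapdh, which makes the first reducing equivalents of the pathway, had 5226, 5441 and 5970.00 CPM in the green libraries, 5223, 5692 and 5571 CPM in the blue libraries and 4913, 5639 and 5732 CPM in the white libraries, and its log2 differences were 0.03 ± 0.08 for green minus white, 0.02 ± 0.08 for blue minus white and 0.01 ± 0.08 for green minus blue. Pgk1, the first ATP-producing enzyme, had 1020.5, 891 and 932 CPM in the green libraries, 812, 832 and 826 CPM in the blue libraries and 909.98, 957 and 875 CPM in the white libraries. Every blue library lay below every green and every white library for Pgk1, while green and white overlapped. The log2 difference was 0.20 ± 0.07 for green minus blue (edgeR adjusted p = 0.654) and -0.15 ± 0.07 for blue minus white (edgeR adjusted p = 1). Pgam1, phosphoglycerate mutase, ranged from 1527 to 1715 CPM, the narrowest range of any member relative to its level (highest over lowest library 1.12).

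Enolase is encoded by Eno1, the ubiquitous form, Eno2, the neuronal form, and Eno3, the muscle form. Eno1 ranged from 3507 to 4691 CPM and overlapped in every comparison. Eno2 ranged from 889 to 1395 CPM, with its lowest level in library 3 of white and 1253 and 1337 CPM in the other white libraries. Of the muscle forms, Eno3 ranged from 3.56 to 7.30 CPM and Pgam2 from 1.44 to 2.65 CPM. Pgam2 was lower in every blue library than in every green and white library, with log2 differences of -0.51 ± 0.25 for blue minus white and 0.52 ± 0.25 for green minus blue (edgeR adjusted p = 1 and 0.709). The 7 muscle markers tested, of 14 listed, summed to 11.6 to 14.2 CPM in green, 10.6 to 11.6 CPM in blue and 12.9 to 19.6 CPM in white libraries, lowest in blue, and their part in the level of Pgam2 was not tested.

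Pyruvate kinase closes the pathway. Pkm, the form of most tissues, had 2709.6, 3004 and 3072 CPM in the green libraries, 2785, 2856 and 2705 CPM in the blue libraries and 2592, 2889 and 2946 CPM in the white libraries, with overlap in every comparison; the table does not separate its splice forms. Pklr, the form known from liver and red cells, had 39.3, 39.6 and 38.8 CPM in the green libraries, 31.9, 30.3 and 28.6 CPM in the blue libraries and 32.8, 33.4 and 38.3 CPM in the white libraries. Every green library lay above every white library and every blue library lay below every white library. Pklr averaged 39.2 ± 0.400 CPM under green light, 30.3 ± 1.65 CPM under blue light and 34.8 ± 3.03 CPM under white light (SD, n = 3 each). Its green minus blue difference of 0.37 ± 0.09 on the log2 scale had the smallest adjusted p of any member in any comparison (edgeR 0.53; DESeq2 0.0597), and over all alternatives it ran over 0.33 to 0.41. The difference was 0.17 ± 0.09 for green minus white (edgeR adjusted p = 0.893) and -0.20 ± 0.09 for blue minus white (edgeR adjusted p = 1). Of the red cell markers listed, only Slc4a1, the anion exchanger of the red cell membrane, was tested, and it had 2.21, 2.67 and 2.65 CPM in the green libraries, 2.29, 2.41 and 3.20 CPM in the blue libraries and 2.25, 3.02 and 2.70 CPM in the white libraries, with overlap between all groups.

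Lactate dehydrogenase was represented by Ldhb, the subunit that favours lactate use, which had 473, 564 and 535 CPM in the green libraries, 499.7, 563 and 552 CPM in the blue libraries and 515, 552 and 533 CPM in the white libraries. The groups overlapped, with log2 differences of -0.03 ± 0.08 for green minus white, 0.01 ± 0.08 for blue minus white and -0.04 ± 0.08 for green minus blue.

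The 4 pyruvate dehydrogenase kinases hold pyruvate back from oxidation. All had a log2 difference above 0 between green and white, as did 52.4% of all genes. For 3 of them it was small against its standard error, at 0.12 ± 0.11 for Pdk2, 0.15 ± 0.16 for Pdk3 and 0.42 ± 0.37 for Pdk4. The Pdk4 value turned to -0.18 without library 1 of green. Pdk1 had 247, 206 and 205 CPM in the green libraries, 222, 176 and 188 CPM in the blue libraries and 191, 167 and 178 CPM in the white libraries. Its green libraries lay above the white ones without overlap, and library 1 of blue lay within the green range. The difference was 0.29 ± 0.11 for green minus white (edgeR adjusted p = 0.839), and it was 0.19 without both "-B" libraries. Pdk2 had 46.8, 48.9 and 54.5 CPM in the green libraries, 49.0, 57.6 and 57.0 CPM in the blue libraries and 42.2, 51.2 and 45.1 CPM in the white libraries, with a blue minus white difference of 0.24 ± 0.11 (edgeR adjusted p = 1), although library 1 of blue lay within the white range. Pdk4, a kinase known to respond to fasting and glucocorticoids, had 13.6, 4.02 and 6.73 CPM in the green libraries, 5.91, 5.63 and 7.04 CPM in the blue libraries and 6.53, 4.10 and 7.62 CPM in the white libraries. Its level in green was set apart by library 1, and its within-group SD was the largest of the 33 members, 0.58 on the log2 scale. Pdk3 ranged from 64.8 to 107 CPM and overlapped throughout.

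Pyruvate is carried into mitochondria by a carrier of the subunits Mpc1 and Mpc2. Mpc1 had 53.9, 53.2 and 59.8 CPM in the green libraries, 64.8, 64.0 and 61.3 CPM in the blue libraries and 67.0, 66.7 and 61.3 CPM in the white libraries. Every green library lay below every blue and every white library. Mpc1 averaged 55.7 ± 3.63 CPM under green light, 63.4 ± 1.83 CPM under blue light and 65.0 ± 3.21 CPM under white light (SD, n = 3 each). Its log2 difference was -0.22 ± 0.08 for green minus white (edgeR adjusted p = 0.839; DESeq2 0.598) and -0.19 ± 0.08 for green minus blue (edgeR adjusted p = 0.686). Mpc2, which forms the carrier together with Mpc1, ranged from 43.6 to 62.1 CPM with differences of -0.08 ± 0.11 for green minus white and -0.21 ± 0.11 for green minus blue, and its groups overlapped.

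Within the pyruvate dehydrogenase complex, the subunit genes had green minus blue differences of both signs. Pdha1, which encodes the catalytic alpha subunit that the kinases phosphorylate, had 88.3, 74.7 and 73.9 CPM in the green libraries, 71.6, 64.9 and 64.8 CPM in the blue libraries and 82.2, 65.4 and 71.4 CPM in the white libraries. Its green libraries lay above the blue ones without overlap, with a difference of 0.23 ± 0.11 (edgeR adjusted p = 0.694). Pdhb, its partner subunit, ranged from 60.7 to 71.8 CPM and differed by -0.08 ± 0.09 for green minus blue, and Dlat, the acetyltransferase core, ranged from 53.9 to 65.2 CPM and differed by -0.07 ± 0.09. The log2 ratio of Pdk1 to Pdha1 was 1.48, 1.46 and 1.47 in green, 1.63, 1.44 and 1.54 in blue, against 1.22, 1.35 and 1.32 in white libraries, so both coloured lights lay above white without overlap on this ratio. In all, 8 such ratios were computed, including those of Hk2 to Hk1 and of Pfkfb3 to Pfkfb4. How often ratios of other gene pairs separate the groups was not computed. A separation can therefore not be read as particular to any of these pairs. The ratio of Aldoc to Aldoa separated the blue from the white libraries (2.42, 2.49 and 2.51 in blue, against 2.30, 2.34 and 2.41 in white), and those of Eno2 to Eno1, Mpc1 to Mpc2, Pfkp to Pfkl and Pdk4 to Pdk2 overlapped in every comparison.

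By role, the 9 genes from hexokinase to triose phosphates all had a green minus blue difference above 0, as did 49.4% of all genes. So did 8 of the 9 genes from glyceraldehyde phosphate to pyruvate, Eno3 being the exception. Slc2a1, 3 of 4 PFKFB genes and 3 of 4 kinases also did, and Ldhb did not. Of the 5 genes of pyruvate entry, only Pdha1 did. Some of these differences lay within their standard error, such as 0.02 ± 0.08 for Pfkm and 0.01 ± 0.08 for Gapdh. Some signs depended on single libraries. Gapdh was at -0.04 without library 3 of green, Pfkm at -0.05 without library 2 of green and Eno2 at -0.05 without library 1 of blue.

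Most members varied less within a light group than the median gene. The within-group SD of log2 level had a median of 0.11 over members, against 0.17 over all genes tested, and 25 of 33 members were below that value. The genes were not matched for level, and low counts widen this SD, while the members had a median level of 300 CPM. The lower SD can therefore not be read as particular to the members. The 33 genes together held 32031 to 34899.5 CPM in green, 30714 to 32268 CPM in blue and 29164 to 33077 CPM in white libraries. Relative to the mean of the 9 libraries, the mean log2 level of the members was 0.074, 0.018 and 0.083 in green, -0.045, -0.025 and -0.048 in blue, against -0.055, -0.033 and 0.031 in white. Green libraries thus lay above blue ones on this mean, and white library 3 lay within the green range. Library 3 of green had 27 of 33 members above their own mean, and library 1 of blue had 8. Library 1 of green held the highest level of 9 members and the lowest of 5.

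**Figure D3:**
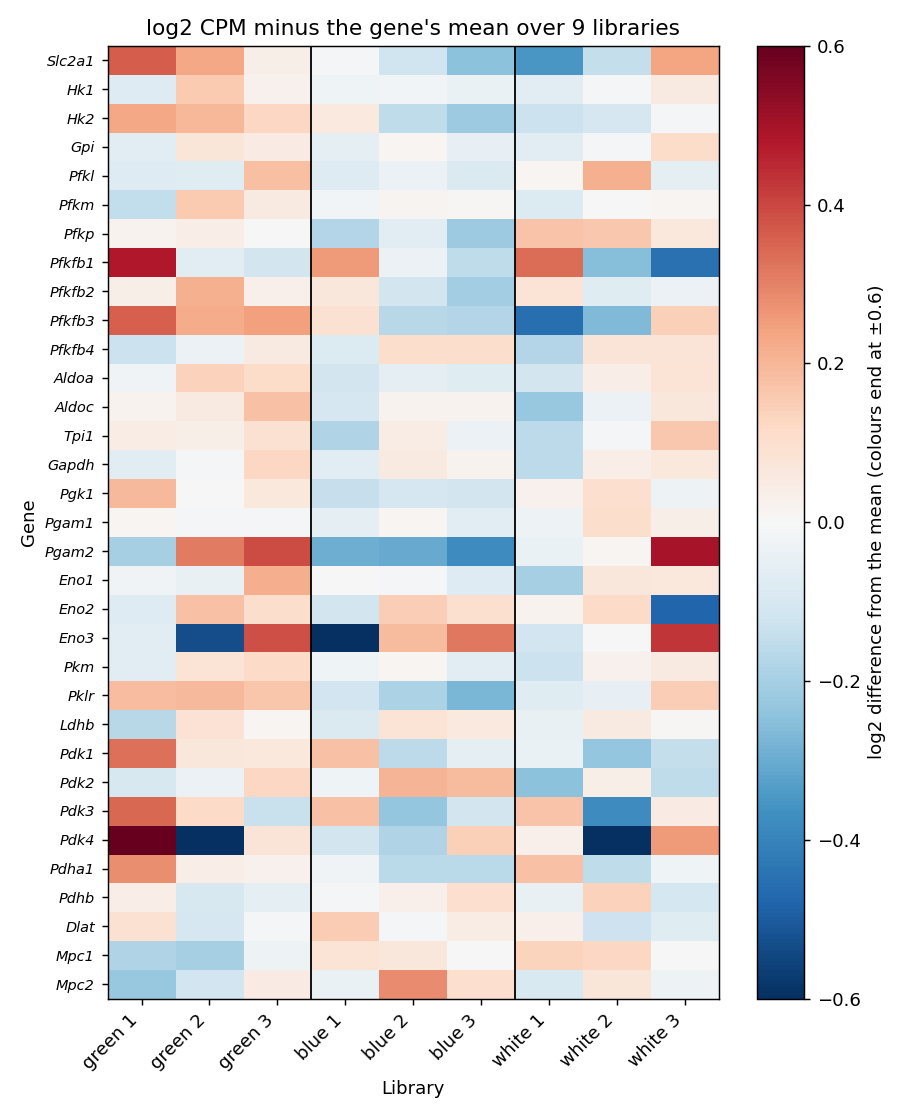
Level of each of the 33 members (rows) in each of the 9 libraries (columns), as log2 CPM minus the gene's mean over all libraries (colour, ending at 0.6 in either direction). Pfkfb3, Hk2 and Pklr are above their mean in all 3 green libraries, Mpc1 is below its mean in them, and Pdk4, Eno3, Pgam2 and Pfkfb1 vary most within groups.

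The absolute log2 difference between libraries with the same animal number had a median over members of 0.139 in green, where both are labelled right eye, and of 0.0649 in blue and 0.156 in white, where they are a right and a left eye. Pdk4 gave the largest such difference in green, 1.75, from 13.6 and 4.02 CPM in libraries 1 and 2. With counts summed per animal number, leaving 2 animal numbers a group, 3 of 33 members had an unadjusted edgeR p under 0.05 between green and white (3.24% of all genes), 1 between blue and white (3.91%) and 3 between green and blue (4.90%), and 0 passed. With the level of the pigment epithelium markers as a covariate the counts were also 3, 1 and 3, against 3.50%, 4.05% and 3.44% of all genes, and 0 passed. Without both "-B" libraries they were 6, 3 and 8, against 6.86%, 5.47% and 6.66%, and 0 passed. Müller glia markers, whose cells also carry out glycolysis, stood at a mean log2 level of -0.004, -0.143 and -0.029 in green, 0.053, 0.071 and 0.165 in blue, against -0.029, 0.055 and -0.138 in white libraries, so all green values were below all blue ones. Rod markers stood at -0.135, 0.102 and 0.114 in green, -0.069, 0.082 and 0.040 in blue, against -0.051, -0.041 and -0.042 in white. Lens markers, from a tissue that lives largely on glycolysis, had mostly positive differences from white under both coloured lights. Of 13, 12 had a green minus white difference above 0, against 52.4% of all genes, with a median of 0.84. An unadjusted p under 0.05 was reached by 8, all higher in green, against 3.52% of all genes. For blue minus white 12 were above 0, against 51.5% of all genes, with a median of 1.16. An unadjusted p under 0.05 was reached by 5, all higher in blue, against 2.47% of all genes. EdgeR and DESeq2 called 0 of them in both comparisons. The lens markers summed to 99.4 to 120.2 CPM in green, 74.1 to 114 CPM in blue and 47.6 to 96.7 CPM in white libraries. Their mean log2 level was 0.49, 0.79 and 0.52 in green, 0.63, -0.08 and 0.63 in blue, against -1.77, 0.23 and -1.44 in white. The low white levels were thus those of libraries 1 and 3, and library 2 of white lay above library 2 of blue. The part of cell composition in the members' values was not tested beyond that covariate.

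Other genes of glucose metabolism were counted from lists of the same pathways; over all genes, an unadjusted p under 0.05 was reached by 5.81% between green and white, 4.45% between blue and white and 7.18% between green and blue. Of 34 further genes of sugar transport, glycolysis and gluconeogenesis tested, 3 had an unadjusted p under 0.05 between green and white (3 higher), 5 between blue and white (2 higher, 3 lower) and 2 between green and blue (2 higher), and edgeR and DESeq2 each called 0. Slc2a5, a fructose transporter, had 7.35, 4.96 and 5.56 CPM in the green libraries, 2.12, 4.41 and 3.92 CPM in the blue libraries and 5.01, 6.57 and 6.68 CPM in the white libraries, with differences of -0.81 ± 0.26 for blue minus white and 0.78 ± 0.26 for green minus blue (edgeR adjusted p = 0.975 and 0.65). Ldhd, which oxidises D-lactate in mitochondria, had 5.57, 6.27 and 7.25 CPM in the green libraries, 5.96, 7.19 and 5.44 CPM in the blue libraries and 2.68, 4.75 and 4.97 CPM in the white libraries, so both coloured lights lay above white, by 0.62 ± 0.23 in green and 0.58 ± 0.23 in blue (edgeR adjusted p = 0.84 and 1). Galm, which interconverts the anomers of sugars, differed by 0.22 ± 0.10 for green minus white and 0.25 ± 0.10 for blue minus white. Eno4, an enolase known from sperm, ranged from 0.0483 to 0.667 CPM. Adpgk, an ADP-dependent glucokinase, and Slc2a8, an intracellular sugar transporter, differed by -0.33 ± 0.14 and -0.30 ± 0.13 for blue minus white, and Pdp2, the phosphatase that opposes the kinases of pyruvate dehydrogenase, by 0.32 ± 0.13 for green minus blue.

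In the tricarboxylic acid cycle, where pyruvate carbon is oxidised, 0 of 19 genes reached an unadjusted p under 0.05 in any of the 3 comparisons, and edgeR and DESeq2 called 0. Their median log2 difference was -0.010 for green minus white, 0.030 for blue minus white and -0.040 for green minus blue, beside 0.009, 0.005 and -0.003 over all genes. Of 11 pentose phosphate genes, 1, 0 and 1 reached an unadjusted p under 0.05 in those comparisons, against 5.81%, 4.45% and 7.18% of all genes, with 0 called by either tool. These were the transketolase-like gene Tktl1 at 0.306 to 1.12 CPM, and H6pd, the form of the pathway's first enzyme in the endoplasmic reticulum, with 0.23 ± 0.09 for green minus blue. Of 16 glycogen genes, 3, 0 and 1 did, all higher in green, against the same shares of all genes, again with 0 called by either tool. Phka2, a regulatory subunit of phosphorylase kinase, had 101, 106 and 102 CPM in the green libraries, 88.0, 87.4 and 89.8 CPM in the blue libraries and 87.4, 81.3 and 94.8 CPM in the white libraries, so the green libraries lay above all others (log2 difference 0.23 ± 0.08 for green minus white and 0.22 ± 0.08 for green minus blue; edgeR adjusted p = 0.837 and 0.654). Phkb, another subunit of that kinase, and Ppp1r3c, which targets phosphatase to glycogen, differed by 0.35 ± 0.15 and 0.30 ± 0.13 for green minus white.

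**Figure D4:**
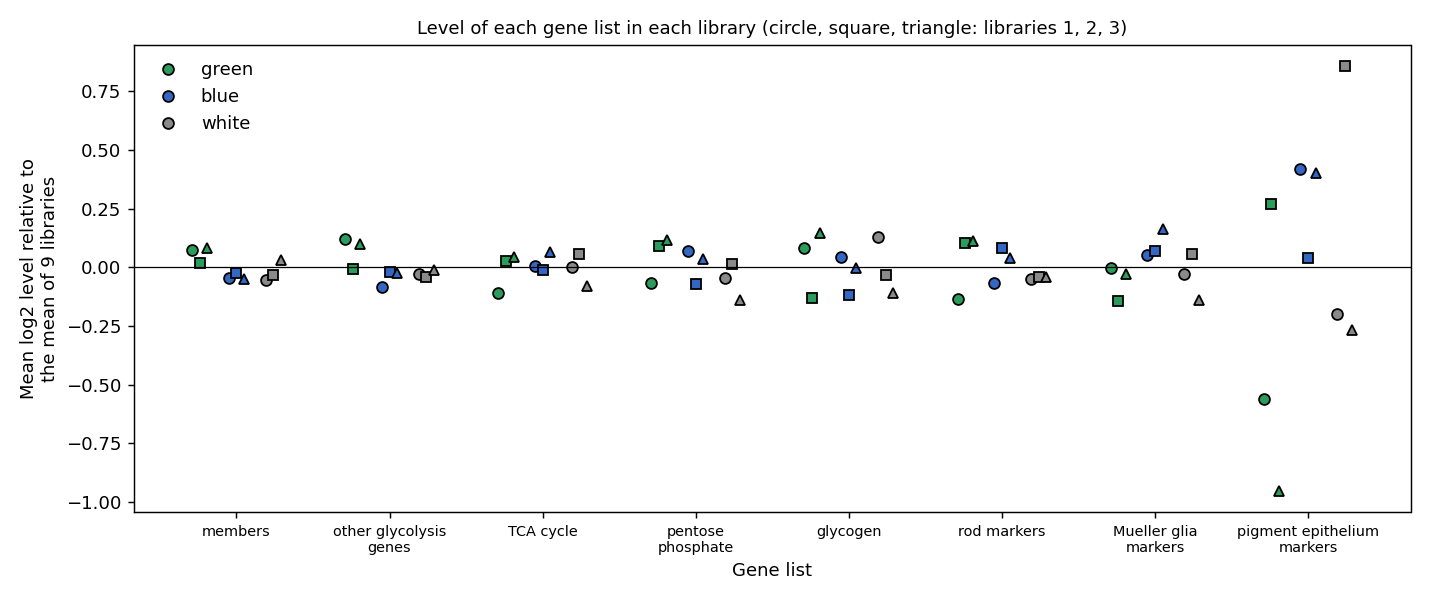
Mean log2 level of each gene list in each library relative to the mean of the 9 libraries (vertical axis), for the members, other lists of glucose metabolism and 3 lists of cell markers, with green, blue and white libraries in colour. The members' green libraries, from 0.018 to 0.083, stand above their blue libraries, and the pigment epithelium markers spread most within groups.

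Among 22 regulators of glucose metabolism, 4, 1 and 4 reached an unadjusted p under 0.05 in the comparisons green with white, blue with white and green with blue, all higher in the group named first, against 5.81%, 4.45% and 7.18% of all genes. Of these genes edgeR called 0 and DESeq2 called 1 in each comparison. Of all genes, DESeq2 called 0.155%, 0.181% and 0.265%. Mlxip, a glucose-sensing transcription factor, had 58.7, 66.5 and 63.9 CPM in the green libraries, 47.6, 50.2 and 46.2 CPM in the blue libraries and 50.6, 52.0 and 59.2 CPM in the white libraries, with a green minus blue difference of 0.39 ± 0.09 (edgeR adjusted p = 0.518; DESeq2 0.0401). Txnip, a target of that factor that restrains glucose uptake, had 27.4, 33.7 and 20.8 CPM in the green libraries, 28.7, 33.3 and 32.5 CPM in the blue libraries and 14.1, 14.3 and 20.9 CPM in the white libraries, so the blue libraries lay above all white ones (log2 difference 0.94 ± 0.19; edgeR adjusted p = 0.487; DESeq2 0.00126). Ddit4 and Egln3, which are induced by low oxygen, differed by 0.46 ± 0.09 and 0.99 ± 0.27 for green minus white (edgeR adjusted p = 0.475 and 0.768; DESeq2 0.00558 and 0.0553), and Arnt, the partner of hypoxia-inducible factor, by 0.32 ± 0.11 for green minus blue (edgeR adjusted p = 0.654). Of the transporters that export lactate, Slc16a3 had 277, 242 and 221 CPM in the green libraries, 194, 204 and 172 CPM in the blue libraries and 149, 160.3 and 241 CPM in the white libraries, with library 3 of white within the green range as for Slc2a1 and a green minus white difference of 0.43 ± 0.16 (edgeR adjusted p = 0.84).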

How the data were processed

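Retinal RNA of 9 libraries was sequenced as paired-end reads, per the labels' protocols. The authors deposited whole-number counts per gene, treated here as raw counts. Not given in the sources used here: aligner, counting tool, strand setting, genome build. Near-identical copies, such as processed pseudogenes of Gapdh and Aldoa, may have shared reads. Low counts cluster at multiples of 4 (2014 values equal 4 and 1267 equal 8, against 472 equal to 3 and 410 equal to 7). An alternative therefore divides counts by 4. A count of 0 allows up to 0.04 to 0.0483 CPM, from counting error alone and if each count is a separate read. If several counts stand for a read, this limit would be higher.

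In edgeR 4.0.16 (R 4.3.3), 15469 genes passed filterByExpr (count 10, total 15), and TMM scaling, a fit over all libraries by light group, quasi-likelihood F tests and Benjamini-Hochberg adjustment followed; the standard error derives from the difference and its F value. DESeq2 1.42.0 was an alternative. The test was checked on simulated data with independent libraries and changes larger than those of any member. That check therefore covers neither differences of the members' size nor libraries that share an animal. Per-library values are given for members with an unadjusted p under 0.05 in any comparison and for a fixed set of others; from further lists, up to 4 genes per list and comparison are named. All 33 symbols match RefSeq names of mCavPor4.1. The members, lists and rules were chosen with earlier results of these data known. Labels 2R-23 (blue library 1) and R-23 (white library 3) were counted as different animals.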

Additional observations from a re-analysis of the deposited data

How the results depend on the processing

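Across 11 alternative settings and the 9 fits that each left out a library, edgeR or DESeq2 called 0 members in every comparison. Of the 15 member differences with an unadjusted p under 0.05, all 300 alternative values kept their sign. Those 15 were picked from the same counts for lying far from 0 relative to their standard error. Their kept signs therefore followed largely from that choice and are no separate check. Over all 33 members, 119 of 1977 alternative values had the opposite sign, none of them for these 15. The count of all genes called was 1 between green and white, 1 between blue and white, 0 between green and blue and 1 in the joint test. It was 24, 28, 41 and 82 with DESeq2, and 10, 12, 0 and 12 without both "-B" libraries. In the first, second and last of these it was 0 with the filter of at least 5 CPM in 3 libraries and 0 with counts divided by 4. In fits of only the 6 libraries compared it was 0, 0 and 1. The "-B" suffix as a covariate gave 3 between blue and white, 1 between green and blue and 2 in the joint test, the pigment epithelium level gave 0 between green and white and 0 in the joint test, and counts summed per animal number gave 0 in the joint test. Leaving out each library in turn gave 0 to 6, 0 to 7, 0 to 4 and 0 to 6. The median difference of the members was set beside the within-group SD of the members' mean log2 level per library, and moved by more than that in few fits. For green minus white the median was 0.0877 without both "-B" libraries. Over the fits that leave out a library it ran from 0.0114, without library 1 of white, to 0.0682. For green minus blue it ran from 0.0585 to 0.124 over those fits, the highest without library 2 of green. The cause was not tested. No paired analysis was possible because the library numbers were given in order of deposition and pair nothing across groups. The member with the fewest counts, Pgam2, had 98 to 173 per library.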

Other observations

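A list of lactate transport genes, which also holds a monocarboxylate transporter gene not named for lactate and a receptor gene, had 8 genes tested. Of these, 3, 2 and 3 had an unadjusted p under 0.05 in the comparisons green with white, blue with white and green with blue. The shares of all genes were 5.81%, 4.45% and 7.18%. EdgeR called 0 of the 8 genes, and DESeq2 called 1, 0 and 1, against 0.155%, 0.181% and 0.265% of all genes. Slc16a6, a monocarboxylate transporter gene, had 31.0, 36.9 and 28.2 CPM in the green libraries, 26.4, 18.6 and 21.7 CPM in the blue libraries and 16.0, 13.4 and 18.3 CPM in the white libraries, with a green minus white difference of 1.01 ± 0.16 on the log2 scale (edgeR adjusted p = 0.299; DESeq2 5.42e-06). The lactate receptor gene Hcar1 was low, with levels of at most 0.103 CPM in green, 0.940 CPM in blue and 0.354 CPM in white libraries. For green with blue, DESeq2 gave an adjusted p of 0.0108 (edgeR 0.488).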
